A study of Mus musculus with 5 samples.

Results

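Chemokine and formyl peptide receptors are the surface receptors with which leukocytes sense chemoattractants. The group described here was a list of 9 genes fixed by name: Ccr1, Ccr2, Ccr7, Ccrl2, Cx3cr1, Cxcr2, Cxcr4, Fpr1 and Fpr2. Each gene was read from the probe set paired with its symbol in the array annotation, and 7 of the 9 had such a probe set, 1 apiece, among the 19505 genes measured. Fpr1 and Fpr2 had no probe set paired with their symbols and were not analysed here. The values came from 5 single-colour expression arrays of sorted tumour-associated macrophages, 3 from MyD88-ko mice and 2 from wild-type (WT) mice, all C57BL/6. Every mouse, of either sex and 6 to 12 weeks old, carried a subcutaneous B16-F10 tumour, which is a mouse melanoma line, and cells were taken on day 15. The sort kept cells bearing CD45, CD11b and the Adgre1 product and left out cells with CD3, B220 or NK1.1. The growth protocol gives spleen cells as the material sorted although each sample is named as tumour macrophages. The labels give neither the deleted Myd88 exons nor whether an array held RNA of 1 mouse or of a pool, so the p-values rest on array-to-array spread that may be partly technical.

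These receptors are proteins that cross the membrane 7 times and pass their signal to inhibitory G proteins, which direct cell movement up a chemoattractant gradient. Ccr2 draws classical monocytes out of the bone marrow, Cxcr2 draws neutrophils, Ccr7 guides dendritic cells to lymph nodes, and Cxcr4 holds leukocytes near their source of Cxcl12. Ccrl2 is an atypical member that presents the chemoattractant chemerin to neighbouring cells rather than signalling through G proteins. MyD88 is the adaptor of the IL-1 receptor family and of most Toll-like receptors, and it leads to NF-κB. The study asked how the MyD88 and IL-1 receptor axis shapes tumour macrophages, and the comparison here was of receptor transcripts with and without MyD88.

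The expression values were log2 and were compared only within a gene, since the signal of a probe set also depends on its probes. Background on each array was set at the 95th percentile of 5222 negative-control probe sets, which lay between 6.55 and 6.74 on the MyD88-ko arrays and at 6.91 and 6.96 on the WT arrays. A gene under this limit may still have been expressed. Adgre1 and Csf1r, defining macrophage genes, were above it on every array, and the T cell, B cell and NK cell marker lists were under it on every array for all 3, 3 and 4 measured genes. Melanoma markers were above it in both groups, with 5 of 6 genes over it on all arrays. Of the 4 markers of splenic red pulp macrophages, Hmox1 was above it on all 5 arrays, Vcam1 on 4, Slc40a1 on 3 and Spic on 0, and the list averaged 7.20 to 7.35 in MyD88-ko and 6.73 and 7.60 in WT. Myd88 itself was at 7.73, 7.01 and 7.58 on the MyD88-ko arrays and 8.46 and 8.40 on the WT arrays, so the groups did not overlap, but the limma adjusted p was 0.179.

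Cxcr2 was the single receptor that passed the test, and it fell in MyD88-ko cells. Of the 7 receptors, 1 was called lower and 0 higher at a limma Benjamini-Hochberg adjusted p under 0.05, against 0.185% of all 19505 genes called lower and 0.00513% called higher. Beyond the test, Ccr2, Ccr1, Ccrl2 and Ccr7 were also lower on all 3 MyD88-ko arrays than on both WT arrays, which made 5 of 7 receptors with groups that did not overlap in that direction. Over all genes 12.9% had such separated groups with lower MyD88-ko values and 14.8% with higher ones. Of the 5 receptors above the background limit on all arrays, 4 were separated downward, against 25.2% of the 2992 genes above it on all arrays. At an unadjusted limma p under 0.05 there were 5 receptors, all lower, against 6.39% of all genes. The median log2 difference of the 7 receptors was -0.95, beside 0.02 over all genes. In RNA from a sorted population, fewer cells of a type and less transcript per cell cannot be told apart.

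**Figure D1:**
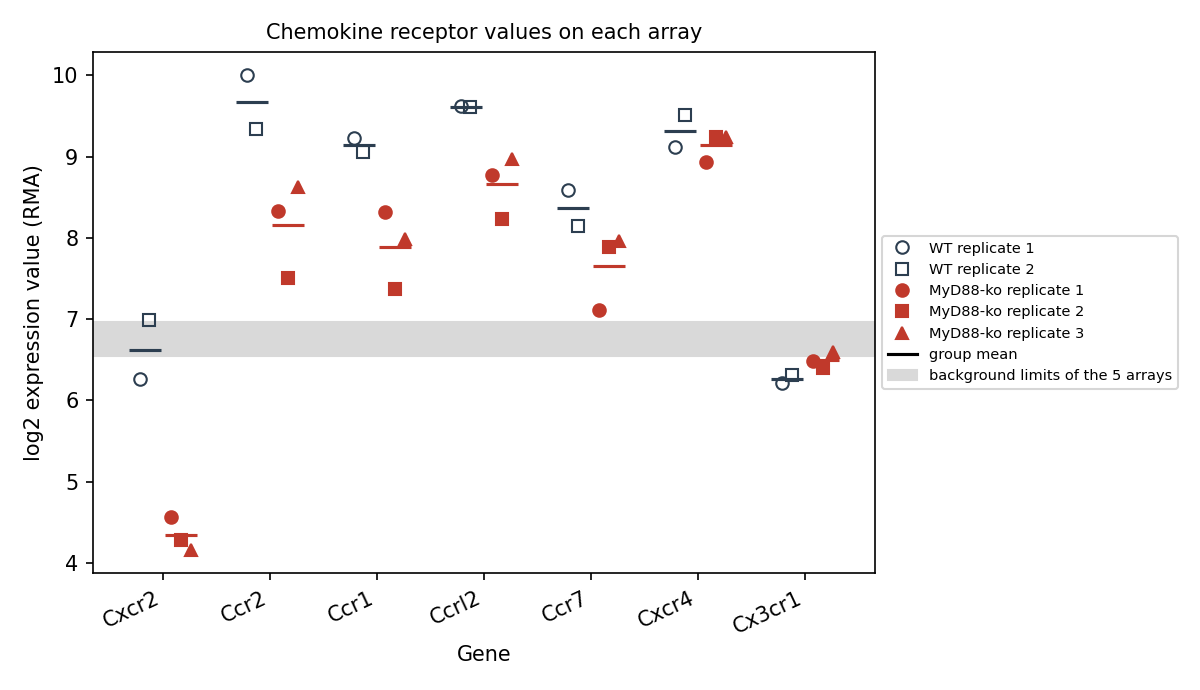
Log2 expression values (vertical axis) of the 7 measured receptors on each array, with WT in open dark symbols, MyD88-ko in filled red symbols, group means as bars and the range of the arrays' background limits (6.55 to 6.96) in grey. Cxcr2 lay at 4.16 to 4.56 in MyD88-ko and at 6.26 and 6.98 in WT, Cx3cr1 lay under the limit throughout, and Cxcr4 was the receptor whose groups overlapped.

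Cxcr2 is the receptor of neutrophils for the chemokines Cxcl1, Cxcl2 and related ligands. Its values were 4.56, 4.29 and 4.16 on the MyD88-ko arrays and 6.26 and 6.98 on the WT arrays. The MyD88-ko arrays sat close together and well under both WT arrays, and WT replicate 2 was the sole array above its background limit. The MyD88-ko mean was 4.34 ± 0.21 (SD, n = 3) and the WT mean 6.62 ± 0.51 (SD, n = 2), which gave a log2 difference of -2.28 with a 95% interval of -2.86 to -1.71 (limma, adjusted p = 0.039). No fold is given, because the WT mean did not exceed the mean limit of the MyD88-ko arrays, and with 4 of the 5 values under the limit the log2 difference is one of signal near background and does not measure the size of a change in transcript level. On the MyD88-ko arrays between 65.1% and 76.1% of negative controls were dimmer than Cxcr2, compared with 91.0% and 95.2% on the WT arrays. The call rested on having all 5 arrays: without each array in turn the difference stayed between -2.65 and -1.92 and the unadjusted limma p was at most 0.00094, while the adjusted p lay between 0.120 and 0.490. In a fit with array weights the difference was -2.28 and the adjusted p 0.063, and with Y-linked expression as a covariate they were -2.00 and 0.302.

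Most neutrophil markers were lower in MyD88-ko, as Cxcr2 was. The mean over the 11 measured markers was 4.35 to 4.70 on the MyD88-ko arrays and 6.62 and 7.005 on the WT arrays. Of the 11, 8 were separated downward, against 12.9% of all genes, and Mmp8, Camp and Ltf overlapped. Against 0.185% of all genes, 5 of the 11 were called lower: S100a8, S100a9, Retnlg, Stfa2l1 and Lcn2. S100a9, a calprotectin subunit, was at 4.99, 4.19 and 4.72 in MyD88-ko and at 9.11 on both WT arrays. Csf3r encodes the receptor for G-CSF and was at 7.74, 7.28 and 7.94 against 9.39 and 9.79 and just missed the threshold (limma, adjusted p = 0.051). The granule genes Camp, Ngp and Ltf were, with Stfa2l1, the 4 of 11 under the limit on every array. With an array left out, S100a9 was still called without MyD88-ko replicate 2 (limma, adjusted p = 0.039), and the other 4 were called in 0 of 5 such fits. The part of neutrophil RNA in the Cxcr2 difference was not tested. Cxcr1, the other receptor for neutrophil-attracting CXC chemokines, averaged 4.20 in MyD88-ko and 4.66 in WT and stayed under the limit.

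The sequences upstream of Cxcr2 and Ccrl2 are shown because a short NF-κB core was matched there, in Cxcr2 only after the core had been widened. RefSeq promoter windows (GRCm38.p6, 250 bases before the annotated start) were held for 8 of the 9 listed receptors, all but Ccr7, and were searched on both strands. The core searched first, GGANTTTCC, matched Ccrl2 alone and occurred in 1.07% of 32851 windows of that length. It was then widened to GGANTTNCC because a near match had been seen upstream of Cxcr2, so the Cxcr2 match was chosen by eye and is no independent finding. The widened core occurred in 3.15% of the windows. Capitals mark the match, which began 26 bases before the start in Cxcr2 (chr1:74153744-74153993, plus strand) and 68 bases before it in Ccrl2 (chr9:111057519-111057768, minus strand, the outermost of 3 annotated starts), and both sequences run from 5′ to 3′ along the gene.
Cxcr2: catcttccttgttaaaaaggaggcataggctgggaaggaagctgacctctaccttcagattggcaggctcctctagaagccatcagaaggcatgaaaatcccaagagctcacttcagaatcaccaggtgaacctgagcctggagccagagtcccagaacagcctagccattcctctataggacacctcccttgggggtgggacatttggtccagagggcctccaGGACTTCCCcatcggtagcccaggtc
Ccrl2: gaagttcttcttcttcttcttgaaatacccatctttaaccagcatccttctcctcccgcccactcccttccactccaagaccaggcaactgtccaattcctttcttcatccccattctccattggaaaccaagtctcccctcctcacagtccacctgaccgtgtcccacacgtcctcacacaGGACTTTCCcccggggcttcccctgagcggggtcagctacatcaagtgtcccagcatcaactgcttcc
A PU.1 core (GAGGAAGT, in 2.44% of windows) and a C/EBP core (TTGCNNAA, in 9.56%) matched none of the 8 windows, and neither match overlaps one of these cores. A match describes letters in a window and no binding was measured.

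Ccr2, the receptor of classical monocytes for Ccl2, had the widest difference among the receptors above background. It was at 8.33, 7.51 and 8.63 on the MyD88-ko arrays and at 10.003 and 9.34 on the WT arrays. Every MyD88-ko array was below both WT arrays, with MyD88-ko replicate 2 the lowest. The means of 8.16 ± 0.58 (SD, n = 3) and 9.67 ± 0.47 (SD, n = 2) differed by -1.51 on the log2 scale, or 2.86-fold, with a 95% interval of -2.39 to -0.64, and missed the threshold (limma, adjusted p = 0.199). Ccr2 was at the 0.395th percentile of all differences.

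Most classical monocyte markers were lower on the same arrays. Their mean over 6 measured genes was 7.32 to 7.77 in MyD88-ko and 8.95 and 9.14 in WT, with 4 of the 6 above the limit on all arrays. Of the 6, 5 were separated downward, against 12.9% of all genes and 25.2% of the 2992 genes above the limit on all arrays. Among them 1 was called lower, against 0.185% of all genes: Hp, which was called in 0 of 5 fits with an array left out. Ly6c2, the surface antigen that marks these monocytes, was at 7.18, 7.40 and 8.47 against 9.96 and 9.03, and Plac8 at 8.76, 8.48 and 9.29 against 11.03 and 10.06. F13a1, another gene of that list, overlapped at means of 9.56 and 9.42. The part of monocyte RNA in the Ccr2 difference was not tested.

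Ccr1, a receptor of monocytes, macrophages and neutrophils for Ccl3, Ccl5 and other CC chemokines, was at 8.31, 7.37 and 7.99 on the MyD88-ko arrays and 9.23 and 9.06 on the WT arrays. The groups were separated and MyD88-ko replicate 2 was again the lowest array. MyD88-ko averaged 7.89 ± 0.48 (SD, n = 3) and WT 9.14 ± 0.12 (SD, n = 2), a log2 difference of -1.25 (95% interval -1.91 to -0.60), or 2.38-fold, which did not pass (limma, adjusted p = 0.176). Without MyD88-ko replicate 2 the difference was -0.99. Ccr1l1 and Ccr3, which lie between Ccr1 and Ccr2 on chromosome 9, were under the background limit on every array, at means of 3.31 and 3.34 for Ccr1l1 and 3.36 and 3.61 for Ccr3.

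Ccrl2 was at 8.78, 8.23 and 8.97 on the MyD88-ko arrays and at 9.62 and 9.61 on the WT arrays. The WT arrays were almost equal and both lay above all MyD88-ko arrays. The means of 8.66 ± 0.38 (SD, n = 3) and 9.61 ± 0.0072 (SD, n = 2) gave a log2 difference of -0.95 (95% interval -1.49 to -0.42), or 1.94-fold, that did not pass (limma, adjusted p = 0.191). Its ligand chemerin, encoded by Rarres2, averaged 3.11 and 3.16, under the limit on each array.

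Ccr7 was lower in MyD88-ko by a smaller amount and with the least separation of these 5 receptors. It was at 7.11, 7.89 and 7.97 on the MyD88-ko arrays and at 8.58 and 8.15 on the WT arrays. MyD88-ko replicate 1 stood below the other two arrays of its group, and the gap between MyD88-ko replicate 3 and WT replicate 2 was narrower than the spread within either group. MyD88-ko averaged 7.66 ± 0.47 (SD, n = 3) and WT 8.37 ± 0.31 (SD, n = 2), a log2 difference of -0.71 (95% interval -1.40 to -0.01) that did not pass (limma, adjusted p = 0.390). The difference was -0.44 without MyD88-ko replicate 1 and -0.49 without WT replicate 1. Its ligands Ccl19 and Ccl21a were under the limit on every array.

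MyD88-ko replicate 1 was also the lowest array for markers of migratory dendritic cells, the cells best known for Ccr7. The mean of the 3 measured markers (Fscn1, Ccl22 and Ccl17) was 5.98, 6.97 and 7.49 on the MyD88-ko arrays and 7.79 and 7.88 on the WT arrays. Ccl22 was at 7.19, 8.84 and 9.43 against 9.62 and 9.86, and Fscn1, under the limit in all 3 MyD88-ko samples, was at 5.14, 5.98 and 6.54 against 7.26 and 7.25. None of the 3 passed (limma, lowest adjusted p = 0.238; 1 of 3 at an unadjusted p under 0.05, against 2449 of all 19505 genes). The part of these cells in the Ccr7 difference was not tested.

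**Figure D2:**
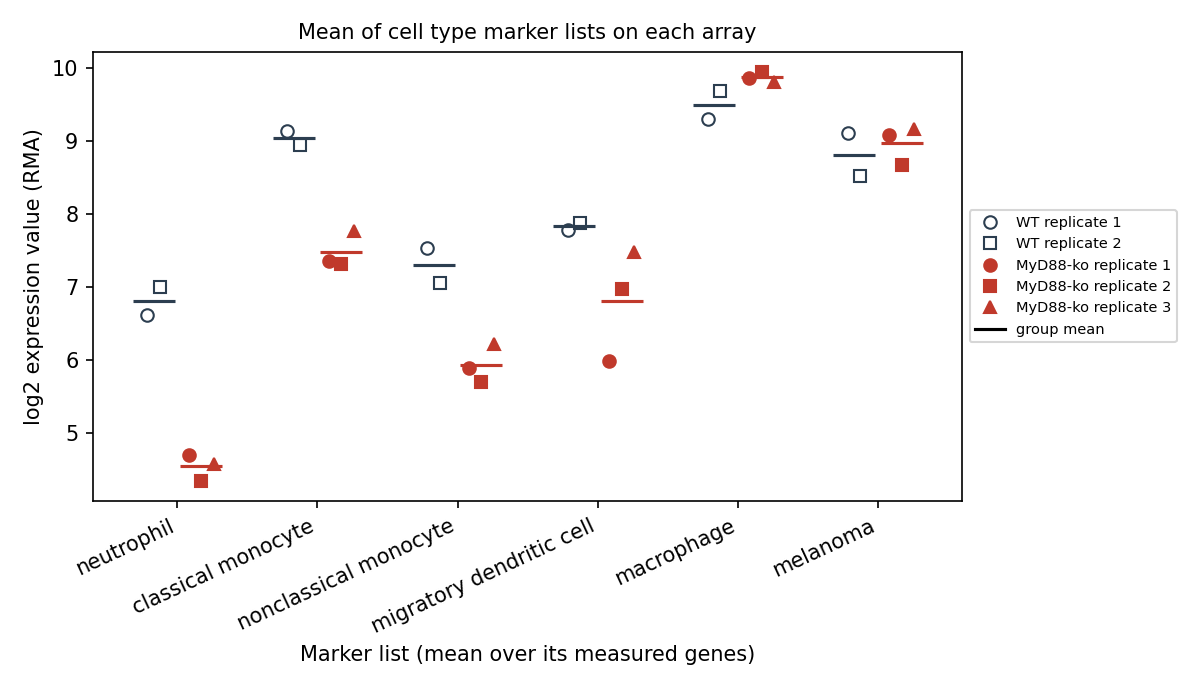
Mean log2 expression value (vertical axis) of 6 cell type marker lists on each array, with WT in open dark symbols, MyD88-ko in filled red symbols and group means as bars. The neutrophil, classical monocyte, nonclassical monocyte and migratory dendritic cell lists were lower on every MyD88-ko array, the macrophage list was higher on every MyD88-ko array (9.81 to 9.95 against 9.30 and 9.69), and the melanoma list overlapped.

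Cxcr4 and Cx3cr1 did not share the lower values. Cxcr4, the receptor for Cxcl12, was at 8.94, 9.25 and 9.25 on the MyD88-ko arrays and at 9.12 and 9.51 on the WT arrays, so the groups overlapped. Its log2 difference was -0.17 with a 95% interval of -0.58 to 0.24 (limma, adjusted p = 0.709), and it turned to 0.03 without WT replicate 2. Whether Cxcr4 differed from the other receptors in its response was not tested. Cxcl12 averaged 5.49 and 5.43, under the limit on each array.

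Cx3cr1, the fractalkine receptor of nonclassical monocytes and many tissue macrophages, was at 6.49, 6.39 and 6.60 on the MyD88-ko arrays and at 6.22 and 6.31 on the WT arrays. All 5 values were under the limits of their arrays, yet the MyD88-ko arrays were the higher ones without overlap. The log2 difference was 0.23 (95% interval -0.04 to 0.50), which missed the threshold (limma, adjusted p = 0.474). The direction was opposite to that of the nonclassical monocyte markers, whose mean over 5 genes was 5.70 to 6.21 in MyD88-ko and 7.06 and 7.53 in WT. None of those 5 passed over all genes, and 4 had an unadjusted limma p under 0.05. Most macrophage markers shared the direction of Cx3cr1: 6 of 9 were separated upward, against 14.8% of all genes. Fcgr1 was separated downward, and Mertk and Lyz2 overlapped. None of the 9 passed (limma, lowest adjusted p = 0.234). At an unadjusted limma p under 0.05 there were 5 of 9, Fcgr1 among them, against 2449 of all 19505 genes. Whether Cx3cr1 moved with either list was not tested. Fractalkine itself, Cx3cl1, was under the limit on all arrays.

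**Figure D3:**
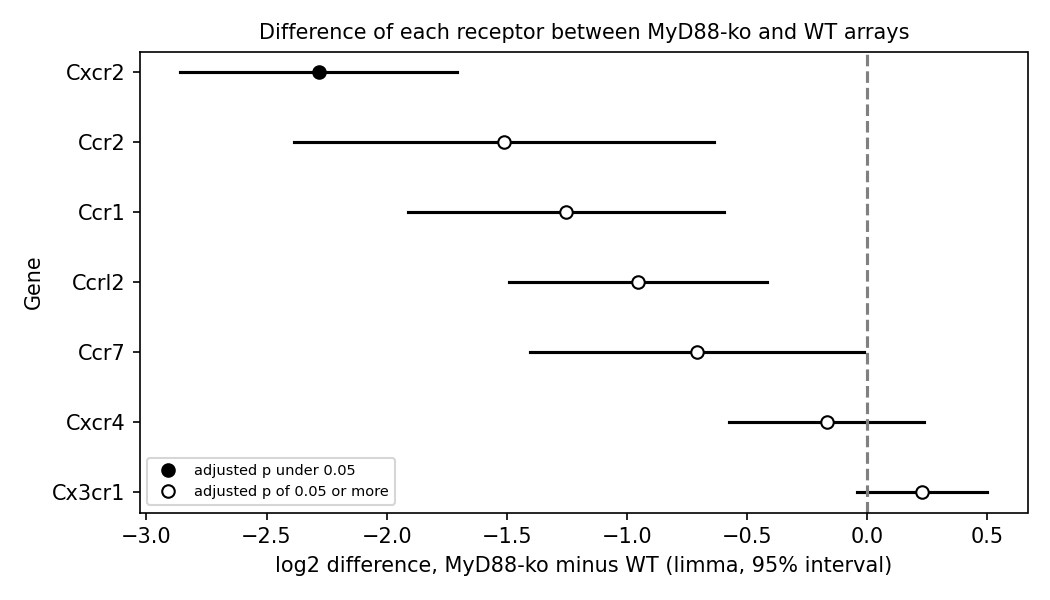
Log2 difference of each receptor, MyD88-ko minus WT (horizontal axis), as the limma estimate with its 95% interval, over 3 and 2 arrays. Filled points passed the adjusted threshold of 0.05; only Cxcr2 did, at -2.28, and the intervals of Ccr2, Ccr1, Ccrl2 and Ccr7 also lay below 0 before adjustment over all genes.

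The rest of the receptor family gave little signal. The 16 other chemokine receptors of the list with a named probe set were all under the background limit on every array, so no level could be told from background for Ccr3, Ccr4, Ccr6, Ccr8, Ccr9, Ccr10, Cxcr1, Cxcr3, Cxcr5, Cxcr6, Xcr1 or the Ackr genes. None passed (limma, lowest adjusted p = 0.421; 0 of 16 at an unadjusted p under 0.05), and the median log2 difference was -0.06. The formyl peptide receptor relatives Fpr-rs3, Fpr-rs4 and Fpr-rs6 were likewise under the limit on every array, at group means between 2.22 and 3.17. These 3 genes are similar in sequence, and whether their probes tell them apart is not known here.

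Among the ligands, 3 of the 5 for Cxcr2 were lower on all MyD88-ko arrays and those of Ccr2 overlapped between groups. Over all 19 ligands, 1 was called lower and 0 higher, against 0.185% and 0.00513% of all genes. Of the 19, 7 were separated downward and 0 upward, against 12.9% and 14.8% of all genes. The median log2 difference was -0.32, beside 0.02 over all genes. Among the 5 ligands of Cxcr2, Cxcl2 fell 2.98-fold, from 11.14 and 11.35 in WT to 9.75, 9.43 and 9.82 in MyD88-ko (limma, adjusted p = 0.039, and called in 0 of 5 fits with an array left out). Cxcl3 was at 8.24, 7.60 and 8.44 against 9.53 and 10.01 (limma, adjusted p = 0.123). Cxcl1 was under the limit in all 3 MyD88-ko samples and at least 1.39-fold lower there (limma, adjusted p = 0.173). Cxcl5 was under the limit throughout. Ppbp, a platelet chemokine, spread widely, at 7.26, 5.70 and 6.997 in MyD88-ko and 6.27 and 9.01 in WT. Cxcr2 and 3 of its 5 ligands were separated in the same direction.

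The ligands of Ccr1 and Ccr2 were above the limit on all arrays, except Ccl5 on MyD88-ko replicate 2. Of the 5 Ccr1 ligands, Ccl3 was at 10.38, 10.19 and 10.35 in MyD88-ko against 11.31 and 11.06 in WT (limma, adjusted p = 0.092). Ccl5 was at 6.94, 6.38 and 7.43 against 8.59 and 7.61, a 2.27-fold difference (limma, adjusted p = 0.296). Ccl6, Ccl7 and Ccl9 overlapped between groups. The 3 ligands of Ccr2 all overlapped: Ccl2 had means of 10.29 and 10.42, Ccl7 of 9.21 and 9.21, and Ccl12 of 8.89 and 8.68 (limma, lowest adjusted p = 0.806; 0 of 3 at an unadjusted p under 0.05). Of the ligands of Fpr1 and Fpr2, Anxa1, which encodes the resolving protein annexin A1, was at 8.18, 8.66 and 8.52 against 8.78 and 8.78, and Saa3 was under the limit on every array.

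**Figure D4:**
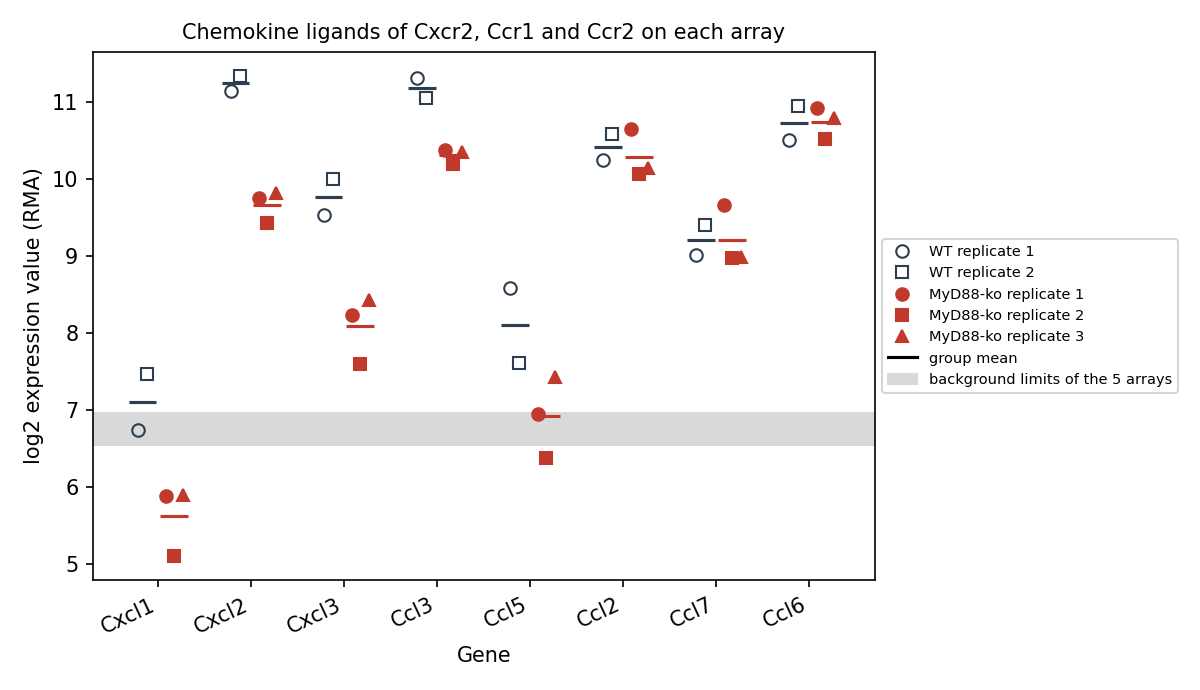
Log2 expression values (vertical axis) of ligands of Cxcr2 (Cxcl1, Cxcl2, Cxcl3), of Ccr1 (Ccl3, Ccl5, Ccl6) and of Ccr2 (Ccl2, Ccl7, the latter also a Ccr1 ligand) on each array, with symbols and the grey band of background limits as for the receptors. Cxcl1, Cxcl2, Cxcl3, Ccl3 and Ccl5 were lower on all MyD88-ko arrays, and Ccl2, Ccl7 and Ccl6 overlapped.

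No gene that carries the receptors' signal inside the cell passed the test. Of 14 measured G protein and regulator genes 0 were called (limma, lowest adjusted p = 0.129). An unadjusted limma p under 0.05 was reached by 6 of the 14, against 2449 of all 19505 genes. Separation was downward for 6 of them and upward for 2, against 12.9% and 14.8% of all genes. Gnai2, the main inhibitory G protein subunit of leukocytes, had means of 10.47 and 10.46. The regulators with the lowest p-values were lower in MyD88-ko. Grk3, a kinase that desensitizes receptors, was at 5.52, 5.91 and 6.28 against 7.99 and 7.24, at least 1.98-fold lower (limma, adjusted p = 0.129). Rgs1, which shortens G protein signals, was at 9.22, 9.01 and 9.11 against 10.11 and 9.41, while Rgs16 and Rgs19 were under the limit on all arrays. Of 15 migration effectors 0 were called (limma, lowest adjusted p = 0.123). An unadjusted limma p under 0.05 was reached by 5 of the 15, against 2449 of all 19505 genes. Separation was downward for 6 of them and upward for 0, against 12.9% and 14.8% of all genes. The actin regulator Coro1a had a log2 difference of -0.61, the Src-family kinase Fgr of -1.23 and the exchange factor Vav1 of -0.46. Plcb2, under the limit in all 3 MyD88-ko samples, was at least 1.19-fold lower. Rac1, Dock2 and Pik3cg, which drive leukocyte migration, overlapped between groups. Rac2 was separated downward by a narrow margin, with means of 8.86 and 8.96.

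Of the 9 receptors, 4 lie on chromosome 9, the chromosome of the targeted gene Myd88: Ccrl2, Cx3cr1, Ccr1 and Ccr2. In RefSeq gene order Cx3cr1 was the 12th measured gene on one side of Myd88, with Ccr1 67 and Ccr2 70 genes away on that side and Ccrl2 42 genes away on the other. The 15 measured genes on each side of Myd88, Cx3cr1 among them, had a median log2 difference of 0.05, beside 0.02 over all genes. Of these 30 genes, 4 were separated downward and 3 upward, against 12.9% and 14.8% of all genes. None of the 30 passed (limma, lowest adjusted p = 0.146; 1 of 30 at an unadjusted p under 0.05, against 2449 of all 19505 genes). The lowest p was that of Csrnp1, with means of 6.61 and 7.41, and 25 of the 30 were under the limit on all arrays. Whether DNA linked to the targeted allele plays a part in the values of these receptors was not tested.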

How the data were processed

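The authors deposited 1 table of log2 values, made by RMA with Affymetrix Expression Console 1.1, a tool named in the submitters' processing notes. No genome build is given in the sources used here. Per the labels' protocols, 100 ng of TRIzol-extracted RNA was made into biotin-labelled cDNA. RMA equalizes array distributions, so a shift shared by most genes would be removed. Values ran from 1.545 to 12.66.

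Of 28846 rows, 19572 probe sets had 1 gene symbol and 9274 none. The highest-mean probe set was kept per gene, leaving 19505. RefSeq GRCm38.p6 served for names, gene order and promoter windows. The contrast MyD88-ko minus WT came from limma 3.58.1 under R 4.3.3 (lmFit, eBayes, genotype the only term, 3 residual degrees of freedom, no filter), with Benjamini-Hochberg adjustment over all genes and a threshold of 0.05. The fit was tested on simulated data with independent normal noise, which shows nothing on unequal arrays or signal near background. One item of the gene lists is not reported here.

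A fold is given where both groups have an array above the limit. A bound ("at least") sets the brighter group's mean against the dimmer group's, each of whose arrays counts at its limit if below it. The number of arrays limits the precision. Named genes were the receptors, Myd88, ligands with separated groups, relatives above the limit, called members or the 4 lowest p-values of each list, and markers. Cxcl5, Ppbp, overlapping ligands, Ccr1l1, Cxcr1, Gnai2, Rac1, Rac2, Dock2, Pik3cg and other genes named for level were added after their values were seen. The receptors and lists were chosen with earlier results of these data known.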

Additional observations from a re-analysis of the deposited data

How the results depend on the processing

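Under the settings tried, each receptor kept the sign of its difference, except that Cxcr4 (-0.17) ranged from -0.37 to 0.027 with an array left out and turned positive without WT replicate 2. The 1 receptor called, Cxcr2, became 0 with array weights, with Y-linked expression (3 genes) as a covariate, with all rows in the fit (Cxcr2 adjusted p = 0.103), at an adjusted p under 0.01, and with only genes above the limit on at least 2 arrays, where Cxcr2 was not tested. It was also 0 without each array in turn. The 37 genes called over all genes became 63 with cyclic loess, 15 with array weights, 0 with the Y-linked covariate (1818 at an unadjusted p under 0.05), 3 with all rows, 84 at an adjusted p under 0.1 and 3 at 0.01, and 0 to 1 when an array was left out (1691 to 3762 at an unadjusted p under 0.05). The Y-linked mean was lower on every MyD88-ko array (4.59 to 5.51) than in WT (5.89 and 6.03), so it cannot be cleanly separated from genotype. That mean was also under the background limit on every array, which limits it as a covariate. The causes of these shifts were not tested.

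With the replicate number as a block, 70 genes and 1 receptor were called, but the receptor was Ccr2 (-1.75, limma adjusted p = 0.029) and Cxcr2 had a limma adjusted p of 0.054. MyD88-ko replicate 3 has no WT array of its number, so these differences came from the other arrays only. They equalled those of the fit without MyD88-ko replicate 3 (Ccr2 -1.75, Cxcr2 -2.195). The labels do not say that numbers pair mice, and deviations from the group means correlated at 0.059 for replicate 1 and 0.105 for replicate 2. MyD88-ko replicate 3, which has no partner, gave 0.054 with WT replicate 1. With 2 WT arrays the deviations of WT mirror each other, so these correlations cannot decide whether the numbers pair arrays. Rescaling the arrays moved the median difference of all genes by at most 0.06. Without read counts, depth is replaced by signal over background. This limits Cx3cr1 and, on all arrays but WT replicate 2, Cxcr2. It also limits the 16 other chemokine receptors and the 3 formyl peptide receptor relatives, all under the limit on every array.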
